A study of Rattus norvegicus with 12 samples.

Results

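The fibulins and the elastic fibre proteins they work with were followed as 10 genes: the fibulin genes Fbln1, Fbln2, Fbln5, Efemp1 and Efemp2, the tropoelastin gene Eln, the microfibril genes Fbn1, Mfap4 and Mfap5, and the cross-linking enzyme gene Lox. A member was any probe set, the group of array probes that reads one transcript, that the platform annotation gave exactly 1 gene symbol from this list. Each of the 10 genes had 1 such probe set, among 14324 genes measured in all. The set was selected on its measured values: its differences between doses in these same arrays were known when it was chosen. The differences and adjusted p-values of the 10 genes below are therefore a description, and nothing is inferred from how many of them passed the test.

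Heart muscle cells were isolated by enzymatic digestion from Sprague-Dawley rat pups of 2 days, grown for 3 days and then exposed for 3 days to DEHP (di(2-ethylhexyl) phthalate), which softens the polyvinyl chloride of medical tubing and bags. The 4 groups received 0.1% dimethyl sulphoxide (DMSO) alone (vehicle), or DEHP at 1, 10 or 50 µg/ml in 0.1% DMSO, with 3 Affymetrix arrays per group and 12 in all. All cells came from 1 litter and the submitters call the arrays of a group biological replicates, so the error behind each p-value is the spread among cultures of that litter. A monolayer of this kind also holds non-muscle heart cells, and the labels give no figure for its purity.

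Elastic fibres give arteries, heart valves and other tissues their recoil. Cells lay down a scaffold of microfibrils made of fibrillin and its associated glycoproteins, tropoelastin is deposited on that scaffold with the help of fibulins, and lysyl oxidase then cross-links the tropoelastin into an insoluble core. In the heart the genes are mainly active in fibroblasts, vascular smooth muscle, endocardial and valve cells rather than in the muscle cells themselves.

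A promoter sequence was held for 6 of the 10 genes (Fbln2, Fbln5, Efemp1, Efemp2, Fbn1 and Mfap5), from RefSeq on build GRCr8. The windows run from 250 bases before to 50 bases after the gene start. Mfap5, the gene of this set with the lowest values at 50 µg/ml, and Fbln2, the fibulin with lower values at the same dose, are shown as the members with a sequence whose difference from vehicle passed the test at that dose. Mfap5 lies at chr4:157399669-157399968 and Fbln2 at chr4:125261409-125261708, both on the plus strand and read 5′ to 3′. Capitals mark matches to any of 6 short motifs, searched on both strands.
Mfap5: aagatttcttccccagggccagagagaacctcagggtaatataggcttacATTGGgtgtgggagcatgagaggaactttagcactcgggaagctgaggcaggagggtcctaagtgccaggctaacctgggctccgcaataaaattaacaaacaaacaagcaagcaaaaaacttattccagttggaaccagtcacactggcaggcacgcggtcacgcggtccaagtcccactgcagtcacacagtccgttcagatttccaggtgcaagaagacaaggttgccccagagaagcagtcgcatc
Fbln2: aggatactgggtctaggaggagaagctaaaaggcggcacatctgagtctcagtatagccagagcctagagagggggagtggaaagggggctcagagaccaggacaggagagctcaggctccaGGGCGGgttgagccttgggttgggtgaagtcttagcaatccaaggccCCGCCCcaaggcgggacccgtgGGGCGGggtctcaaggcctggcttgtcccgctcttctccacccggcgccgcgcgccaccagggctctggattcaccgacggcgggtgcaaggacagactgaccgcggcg
The motif searched for AP-1 was TGANTCA, that for Smad proteins was CAGACA, that for nuclear receptors was AGGTCA and that for Sp1 was GGGCGG. The box bound by NF-Y was searched as CCAAT and the box bound by the TATA binding protein as TATAAA, and none of these spellings overlaps another in the 2 windows. The Mfap5 window held 1 match, a match to CCAAT on the minus strand at position -200 from the gene start. The Fbln2 window held 3 Sp1 matches, at positions -128 and -59 on the plus strand and -81 on the minus strand. Of 33469 rat promoter windows of the same length, 37.5% held CCAAT and 33.1% held GGGCGG, so both kinds of match are common. The other 4 motifs stood in 7.33% (AP-1), 21.1% (Smad), 16.2% (nuclear receptors) and 14.2% (TATAAA) of windows. The G and C content was 51.7% in the Mfap5 window and 64.7% in the Fbln2 window, against a median of 51.7% over all windows. These matches are descriptions of letters and the arrays do not test them.

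The values deposited for each probe set are ratios of an array to the median of the 12 arrays, and they are given here as log2 ratios: 0 means that an array sat at the median of the 12. The level of a gene was lost in that step, so no gene is called abundant or rare, genes are not ranked against each other by level, and the presence of heart muscle markers cannot be checked as a level. No source used here states the direction of the ratio, and it was read as array over median. Over all genes, 17.6% differed between 50 µg/ml and vehicle at an adjusted p under 0.05, 0% between 10 µg/ml and vehicle, and 4.24% between 1 µg/ml and vehicle. The 10 µg/ml replicate 2 array stood apart, with an SD of log2 ratios over all probe sets of 0.170, against 0.0967 and 0.0881 in the other arrays of its group. The same vehicle arrays serve all 3 comparisons with vehicle.

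At 50 µg/ml Fbln1 rose 2.01-fold over vehicle, and Mfap5 fell to 0.455 of its vehicle value. Eln rose 1.35-fold, Lox fell to 0.795 and Fbln2 to 0.846 of vehicle, and the other 5 genes did not pass the test. At 1 µg/ml Fbln1 went the other way, to 0.739 of vehicle. The count at 50 µg/ml was 2 higher and 3 lower of 10, beside 8.75% of all genes higher and 8.84% lower. The members' median difference was -0.07 and that of all genes was 0.02, while the median size of the difference, without its sign, was 0.18 in the members and 0.08 in all genes.

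**Figure D1:**
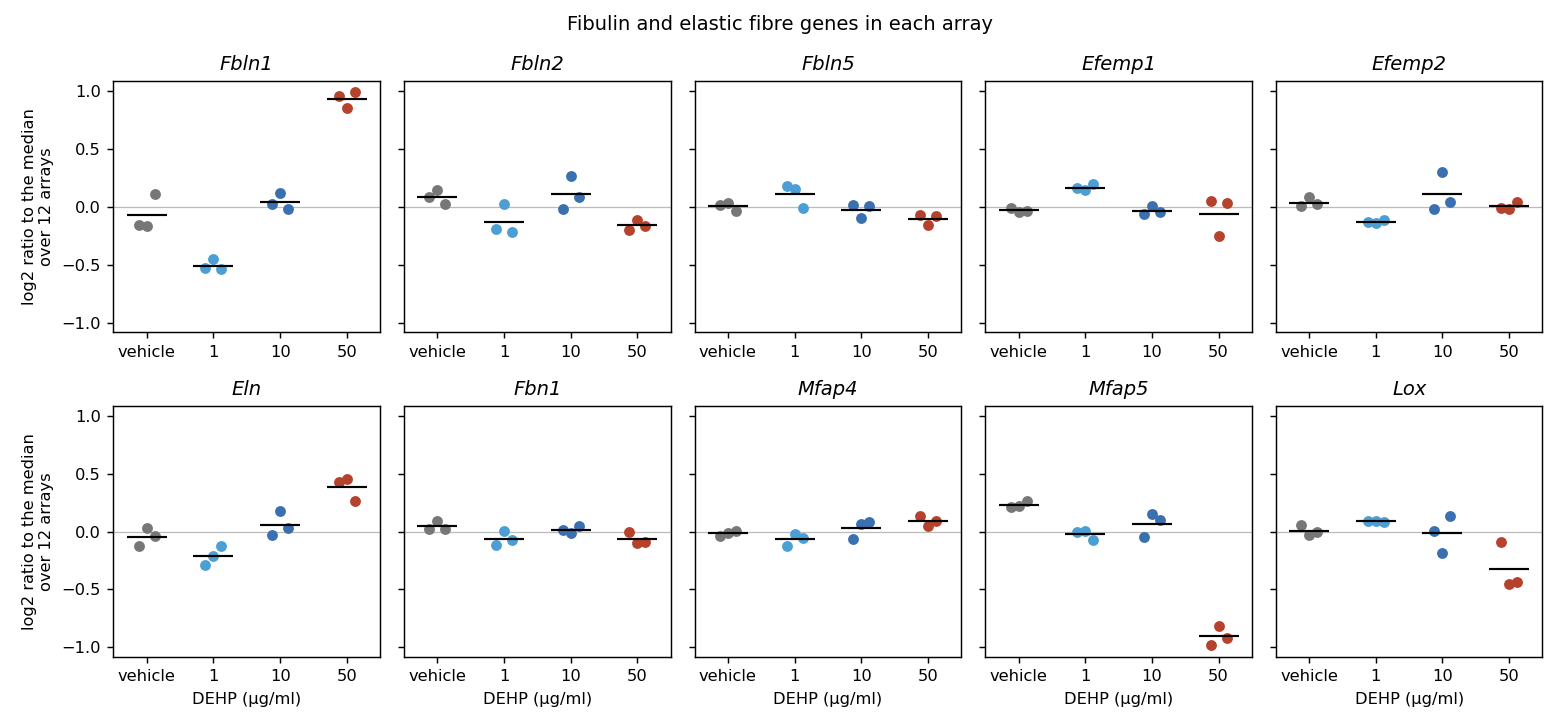
Log2 ratio to the median over 12 arrays (vertical axis) for each of the 10 genes, by DEHP dose in µg/ml (horizontal axis). Each point is 1 array and each bar the mean of 3. Fbln1 sits between 0.85 and 0.99 at 50 µg/ml and Mfap5 between -0.98 and -0.82, outside the range of every other group of the same gene.

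Fbln1 encodes fibulin-1, a secreted glycoprotein of elastic fibres and basement membranes that binds fibronectin and versican. Its log2 ratios were -0.15, -0.16 and 0.11 in the vehicle arrays, -0.53, -0.45 and -0.53 at 1 µg/ml, 0.02, 0.12 and -0.02 at 10 µg/ml, and 0.96, 0.85 and 0.99 at 50 µg/ml. All 3 arrays at 50 µg/ml lay above every other array, all 3 at 1 µg/ml lay below every other array, and the arrays at 10 µg/ml overlapped with vehicle. The difference between 50 µg/ml and vehicle was 1.00 ± 0.07 on the log2 scale (SE, limma adjusted p = 1.46e-06), the 33rd highest of the 14324 genes. Between 1 µg/ml and vehicle Fbln1 fell by 0.44 ± 0.07 (adjusted p = 0.00793), the 65th lowest, and between 10 µg/ml and vehicle the difference was 0.11, with a 95% interval from -0.05 to 0.27 (adjusted p = 0.818). Its lowest and highest groups, 1 and 50 µg/ml, were therefore separated by more than either was from vehicle: the difference of 50 minus 1 µg/ml was 1.44 ± 0.07, or 2.71-fold (adjusted p = 9.36e-08), the 10th highest of all genes. The calls against vehicle at 50 and 1 µg/ml were kept in all 21 alternative analyses.

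Fbln2 encodes fibulin-2, which binds fibrillin and tropoelastin and is made in developing valves and vessel walls. Its log2 ratios were 0.08, 0.14 and 0.02 in the vehicle arrays, -0.19, 0.02 and -0.21 at 1 µg/ml, -0.02, 0.27 and 0.08 at 10 µg/ml, and -0.20, -0.11 and -0.16 at 50 µg/ml. The arrays at 50 µg/ml all lay below those of vehicle, those at 1 µg/ml did so narrowly in replicate 2, and those at 10 µg/ml overlapped with vehicle. At 50 µg/ml Fbln2 fell by 0.24 ± 0.08 against vehicle (adjusted p = 0.0478). The difference of 1 µg/ml from vehicle was -0.21 ± 0.08 and did not pass (adjusted p = 0.146). The call at 50 µg/ml lay close to the threshold: it was lost without any of the 3 vehicle arrays, any of the 3 arrays at 50 µg/ml, replicates 1 and 3 of 1 µg/ml or replicate 3 of 10 µg/ml, with differences from -0.27 to -0.21 and adjusted p from 0.051 to 0.158. It was also lost with a robust prior variance and when every probe set was tested.

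The short fibulins, which take tropoelastin to the microfibrils, had no difference from vehicle that passed in the main fit. Fbln5 encodes fibulin-5, which joins elastin to cell-surface integrins. Its values were 0.02, 0.03 and -0.03 in vehicle, 0.18, 0.16 and -0.01 at 1 µg/ml, 0.02, -0.10 and 0.01 at 10 µg/ml, and -0.07, -0.16 and -0.08 at 50 µg/ml. All 3 arrays at 50 µg/ml lay below vehicle, but the difference of -0.11 did not pass (95% interval -0.23 to 0.01, adjusted p = 0.232). Efemp1 encodes fibulin-3, a relative of fibulin-5 found in basement membranes and loose connective tissue. Its values were -0.01, -0.04 and -0.04 in vehicle, 0.16, 0.14 and 0.20 at 1 µg/ml, -0.07, 0.01 and -0.05 at 10 µg/ml, and 0.05, -0.25 and 0.03 at 50 µg/ml. The 3 arrays at 1 µg/ml were the highest of the 12, and replicate 2 at 50 µg/ml was the lowest. The difference of 1 µg/ml from vehicle was 0.20 ± 0.07 and did not pass (adjusted p = 0.126), although it did without 50 µg/ml replicate 2 (adjusted p = 0.0226). It also passed when quantile normalization was applied again, with array weights and in a fit of the compared groups alone. Efemp2 encodes fibulin-4, which brings lysyl oxidase to tropoelastin. Its values were 0.01, 0.08 and 0.02 in vehicle, -0.13, -0.14 and -0.11 at 1 µg/ml, -0.02, 0.30 and 0.04 at 10 µg/ml, and -0.01, -0.02 and 0.04 at 50 µg/ml. The arrays at 1 µg/ml lay together below all others, and the single high value was that of the 10 µg/ml array that stood apart. The difference of 1 µg/ml from vehicle was -0.16 ± 0.07 and did not pass (adjusted p = 0.206), but it did without that array (adjusted p = 0.0328). The Efemp2 difference also passed with array weights and in a fit of the compared groups alone.

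Eln encodes tropoelastin, the soluble precursor of the elastic core. Its log2 ratios were -0.13, 0.03 and -0.04 in the vehicle arrays, -0.29, -0.21 and -0.13 at 1 µg/ml, -0.03, 0.17 and 0.03 at 10 µg/ml, and 0.43, 0.46 and 0.26 at 50 µg/ml. The arrays at 50 µg/ml lay above all others, those at 1 µg/ml lay below all others, narrowly in replicate 3, and those at 10 µg/ml overlapped with vehicle. At 50 µg/ml Eln rose by 0.43 ± 0.07 over vehicle (adjusted p = 0.00108), a call kept in all 21 alternative analyses. The difference of 1 µg/ml from vehicle was -0.16, with a 95% interval from -0.32 to -0.01, and did not pass (adjusted p = 0.218).

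The microfibril genes did not move as one. Mfap5 encodes a small glycoprotein, also called MAGP-2, that binds fibrillin along the microfibril. Its log2 ratios were 0.21, 0.22 and 0.26 in the vehicle arrays, 0.00, 0.00 and -0.08 at 1 µg/ml, -0.05, 0.15 and 0.10 at 10 µg/ml, and -0.98, -0.82 and -0.92 at 50 µg/ml. The vehicle arrays were the highest 3 of the 12 and those at 50 µg/ml the lowest 3, with 1 and 10 µg/ml between them and overlapping each other. Against vehicle, Mfap5 fell by 1.14 ± 0.06 at 50 µg/ml (adjusted p = 1.21e-07), the 52nd lowest of all genes and kept in all 21 alternatives. It fell by 0.26 ± 0.06 at 1 µg/ml (adjusted p = 0.0322), a call lost without any 1 of the 6 arrays compared (differences from -0.27 to -0.23, adjusted p from 0.0596 to 0.118). At 10 µg/ml its difference was -0.17 ± 0.06 and did not pass (adjusted p = 0.732).

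Fbn1 encodes fibrillin-1, the main protein of the microfibril. Its values were 0.02, 0.09 and 0.02 in vehicle, -0.12, 0.00 and -0.07 at 1 µg/ml, 0.01, -0.01 and 0.05 at 10 µg/ml, and 0.00, -0.10 and -0.09 at 50 µg/ml. The arrays at 1 and 50 µg/ml lay below those of vehicle by small amounts, with differences of -0.11 at both doses that did not pass (adjusted p = 0.227 at 1 and 0.144 at 50 µg/ml). Mfap4 encodes a microfibril-associated protein of the fibrinogen-related family that binds elastin. Its values were -0.04, -0.01 and 0.01 in vehicle, -0.13, -0.02 and -0.05 at 1 µg/ml, -0.06, 0.06 and 0.09 at 10 µg/ml, and 0.13, 0.05 and 0.09 at 50 µg/ml. The arrays at 50 µg/ml lay above vehicle, with a difference of 0.10 ± 0.05 that did not pass (adjusted p = 0.202), and those at 1 and 10 µg/ml overlapped with vehicle. Fbn1 and Mfap4 varied little over the 12 arrays, with SDs of 0.0651 and 0.0759, against 0.464 for Mfap5.

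Lox encodes lysyl oxidase, the copper enzyme that oxidises lysines of tropoelastin and collagen so that they cross-link. Its log2 ratios were 0.06, -0.03 and -0.01 in the vehicle arrays, 0.09, 0.09 and 0.09 at 1 µg/ml, 0.01, -0.18 and 0.13 at 10 µg/ml, and -0.09, -0.45 and -0.44 at 50 µg/ml. The arrays at 50 µg/ml all lay below vehicle, but replicate 1 lay close to it and replicates 2 and 3 far below. Lox fell by 0.33 ± 0.09 at 50 µg/ml against vehicle (adjusted p = 0.0276). The call was lost without any vehicle array and without replicate 2 or 3 of 50 µg/ml, with differences from -0.35 to -0.27 and adjusted p from 0.0578 to 0.109, and also when quantile normalization was applied again (difference -0.23, adjusted p = 0.0596). The differences of 1 and 10 µg/ml from vehicle were 0.09 and -0.02 and did not pass (adjusted p = 0.68 and 0.99).

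**Figure D2:**
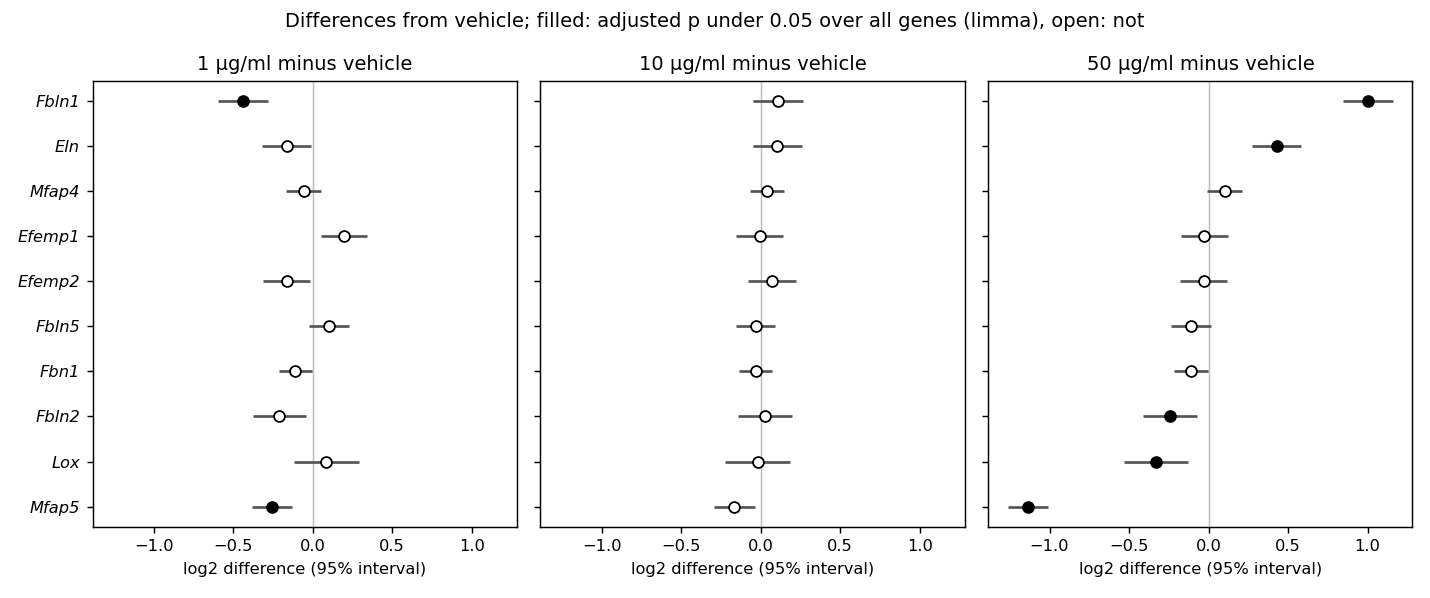
Log2 difference of each dose from vehicle (horizontal axis) for the 10 genes, with 95% intervals from limma. Filled points have an adjusted p under 0.05 over all 14324 genes: Fbln1 and Mfap5 at 1 µg/ml, none at 10 µg/ml, and Fbln1, Eln, Fbln2, Lox and Mfap5 at 50 µg/ml.

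At 1 µg/ml, 0 members were higher and 2 lower, where 2.51% of all genes were higher and 1.74% lower. Their median difference was -0.14, against 0.00 over all genes. At 10 µg/ml, 0 of 10 passed in limma, as did 0 of all genes, and 1 of 10 (Mfap5) had an unadjusted p under 0.05, as did 6.28% of all genes. Without the 10 µg/ml array that stood apart the count was also 0, and the differences of that dose from vehicle were -0.21 in Mfap5, 0.07 in Fbln1 and 0.05 in Eln, against -0.17, 0.11 and 0.10 with it. By rank alone, 8 of 10 members had 3 arrays at 50 µg/ml on one side of the 3 vehicle arrays, where 36.0% of all genes did. The same held for 8 of 10 at 1 µg/ml, where 30.8% of all genes did, and for 1 of 10 at 10 µg/ml, where 11.2% did. The moderated F over the 4 groups passed for 5 members (Mfap5, Fbln1, Eln, Lox and Fbln2), beside 27.2% of all genes.

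The genes fell into a few orders of their group means. Fbln1, Eln and Mfap4 were each lowest at 1 µg/ml and ran upward through vehicle and 10 µg/ml to their highest mean at 50 µg/ml. Lox, Fbln5 and Efemp1 had exactly the opposite order, highest at 1 µg/ml and lowest at 50 µg/ml. Mfap5 and Fbn1 were highest in vehicle and lowest at 50 µg/ml, and Fbln2 and Efemp2 were highest at 10 µg/ml. Only 5 steps between neighbouring means in these orders passed the test. They were 50 over 10 µg/ml in Fbln1 and Eln (adjusted p = 5.25e-06 and 0.00795), 1 µg/ml below vehicle in Fbln1 (0.00793), 50 below 1 µg/ml in Mfap5 (8.89e-07) and 50 below 10 µg/ml in Lox (0.0414). In these 4 genes the other steps between neighbours did not pass, which does not show that the groups were alike. The adjusted p for 10 µg/ml and vehicle was 0.818 in Fbln1, 0.823 in Eln, 0.732 in Mfap5 and 0.99 in Lox. For 1 µg/ml and vehicle it was 0.218 in Eln and 0.68 in Lox, and for 10 and 1 µg/ml 0.348 in Mfap5. Without overlap, the arrays lay below vehicle in Mfap5 at 10 µg/ml and in Eln at 1 µg/ml. Those of Lox at 1 µg/ml lay above vehicle. No pair of neighbours passed in Fbln2, Fbln5, Efemp1, Efemp2, Fbn1 or Mfap4, with adjusted p from 0.126 to 0.996. The orders of these 6 genes therefore rest on steps that did not pass.

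The doses were also compared with each other. At 50 µg/ml against 1 µg/ml, 3 members were higher and 4 lower of 10, where 24.9% of all genes differed (11.5% higher and 13.4% lower). Eln rose 1.51-fold in that comparison (log2 0.59 ± 0.07, adjusted p = 0.000102), Mfap5 fell by 0.88 ± 0.06 (8.89e-07) and Lox fell by 0.42 ± 0.09 (0.00703). Mfap4 (0.16 ± 0.05, adjusted p = 0.0363), Efemp1 (-0.22 ± 0.07, 0.03) and Fbln5 (-0.21 ± 0.06, 0.0176) also passed, but each of these 3 lost its call without one or another array. Mfap4 lost it without vehicle replicate 2, or replicate 1 or 3 of either dose (highest adjusted p = 0.127), Efemp1 without any array at 1 µg/ml or replicate 2 of 50 µg/ml (0.0897, with a difference of -0.13 without the last), and Fbln5 without replicate 1 or 2 of 1 µg/ml or replicate 2 of 50 µg/ml (0.0717). Mfap4 also lost it when quantile normalization was applied again and when each array was centred on its median. In fits of the compared groups alone, Mfap4 and Efemp1 lost it too. Without the 10 µg/ml array that stood apart, Efemp2 also passed (adjusted p = 0.0316).

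At 50 µg/ml against 10 µg/ml, 2 members were higher at 50 µg/ml and 3 lower, where 14.6% of all genes differed. Fbln1 rose by 0.89 ± 0.07 (adjusted p = 5.25e-06), Eln rose by 0.32 ± 0.07 (0.00795) and Mfap5 fell by 0.97 ± 0.06 (7e-07). Lox fell by 0.31 ± 0.09 (0.0414), although its arrays of the 2 doses overlapped, and Fbln2 fell by 0.27 ± 0.08 (0.034). The call of Lox was lost without any of 10 of the 12 arrays, the exceptions being 10 µg/ml replicate 2 and 50 µg/ml replicate 1 (highest adjusted p = 0.152), and that of Fbln2 without replicate 2 or 3 of 10 µg/ml or any array at 50 µg/ml (0.102). Both were also lost when quantile normalization was applied again and in fits of the compared groups alone. Between 10 and 1 µg/ml, 3 members were higher at 10 µg/ml and 0 lower, where 14.0% of all genes differed: Fbln1 by 0.55 ± 0.07 (adjusted p = 0.00133), Eln by 0.27 ± 0.07 (0.0277) and Efemp2 by 0.24 ± 0.07 (0.0408). Eln lost this call without replicate 1 or 2 of 1 µg/ml or replicate 2 of 10 µg/ml (highest adjusted p = 0.102). Efemp2 lost it without any of 9 arrays: those of vehicle, those at 1 µg/ml, 10 µg/ml replicate 2 and 50 µg/ml replicates 1 and 3 (0.104), with a difference of 0.14 without 10 µg/ml replicate 2. Eln and Efemp2 also lost their calls in fits of the compared groups alone. Without 10 µg/ml replicate 2 the differences of 50 minus 10 µg/ml were 0.93 in Fbln1, 0.38 in Eln, -0.93 in Mfap5 and -0.40 in Lox, and that of 10 minus 1 µg/ml was 0.51 in Fbln1, all past the threshold. Between 10 and 1 µg/ml, Fbln2 gained a call without 1 µg/ml replicate 2 or 10 µg/ml replicate 1, and Efemp1 without 50 µg/ml replicate 2 (adjusted p = 0.0101). Efemp1 also gained it when quantile normalization was applied again and with array weights, and Fbln2 with the replicate number as a block.

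The other genes of the pathway were taken from 3 lists, of which 60 of 82 entries were measured. These lists too were chosen with earlier results of these data known. Their counts are a description, and nothing is inferred from them. At 50 µg/ml against vehicle 10 of the 60 were higher, 13 lower and 37 did not pass, or 38.3% called, where 17.6% of all genes were called. At 1 µg/ml 0 were higher and 4 were lower, or 6.67%, where 4.24% of all genes were called, and at 10 µg/ml 0 passed in limma. The median difference of the 60 genes at 50 µg/ml was 0.01, against 0.02 over all genes.

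Of the microfibril and elastic fibre partners, 21 of 40 entries were measured, and at 50 µg/ml 1 was higher and 8 were lower, with a median of -0.10. The share called was 42.9%, beside 17.6% of all genes. Ltbp2, a latent TGF-beta binding protein of the fibrillin superfamily that sits on microfibrils, had log2 ratios of -1.13, -1.16 and -1.02 at 50 µg/ml, against 0.13, 0.10 and 0.11 in vehicle. It fell by 1.22 ± 0.08 (adjusted p = 5.44e-07), more than Mfap5. Vcan, the large proteoglycan versican that fibulin-1 binds, had -0.49, -0.77 and -0.59 at 50 µg/ml, against 0.14, 0.09 and 0.11 in vehicle, and fell by 0.73 ± 0.08 (adjusted p = 4.06e-05). Vwa1, which encodes a matrix protein of basement membranes, fell by 0.58 ± 0.10 (0.00104), and Ltbp1, the first of the latent TGF-beta binding proteins, fell by 0.57 ± 0.07 (6.9e-05). The 1 partner that rose was Mfap2, the closest relative of Mfap5. Mfap2 had 0.35, 0.39 and 0.43 at 50 µg/ml, against 0.03, -0.25 and 0.17 in vehicle, and rose by 0.41 ± 0.09 (adjusted p = 0.00973). The groups of these genes did not overlap, and the pair of small microfibril glycoproteins Mfap2 and Mfap5 thus had opposite signs at 50 µg/ml. When quantile normalization was applied again, the rise of Mfap2 was 0.29 and did not pass (adjusted p = 0.0976). The falls of Ltbp2, Vcan, Vwa1 and Ltbp1 kept their calls in all 21 alternative analyses, and some of the other falls did not.

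Of the genes of cross-linking and its activation, 17 of 19 were measured, and at 50 µg/ml 2 were higher, 2 lower and 13 did not pass. The 23.5% called lay near the 17.6% of all genes. Loxl3, a relative of lysyl oxidase, fell by 0.38 ± 0.07 (adjusted p = 0.00328), with -0.26, -0.41 and -0.13 at 50 µg/ml, against 0.17, 0.19 and -0.03 in vehicle. The other relatives Loxl1, Loxl2 and Loxl4 had differences of 0.01, 0.05 and 0.22 and did not pass. P4ha2, a subunit of collagen prolyl hydroxylase, rose by 0.29 ± 0.06 (0.00291). Bmp1, the protease that releases active lysyl oxidase, rose by 0.14 (0.0462), and Atp7a, the copper pump that loads the enzyme, fell by 0.26 (0.0277). Atp7a lost its call without vehicle replicate 1 or 2 or 50 µg/ml replicate 2 or 3 (highest adjusted p = 0.11), and Bmp1 lost its call without any of 9 arrays, those other than vehicle replicate 2, 10 µg/ml replicate 2 and 50 µg/ml replicate 2 (highest 0.158 over the alternatives). Bmp1 also lost it when quantile normalization was applied again and when each array was centred on its median.

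Of the genes of elastin binding and turnover, 22 of 23 were measured, and 7 were higher and 3 lower at 50 µg/ml. That is 45.5% called, beside 17.6% of all genes. Mmp14 and Mmp2, the membrane-bound activator of gelatinase A and gelatinase A itself, rose by 0.44 (adjusted p = 8.14e-05) and 0.27 (0.00105), and the inhibitor Timp2 rose by 0.27 (0.0109). Mmp9, or gelatinase B, was 0.32 higher (0.0438). Ctss, an elastin-degrading cysteine protease of macrophages, had -1.12, -1.29 and -1.22 at 50 µg/ml, against 0.13, 0.21 and 0.13 in vehicle, and fell by 1.36 (2.02e-07). Lgals3, a galectin abundant in macrophages, fell by 0.43 (0.000292), and Mmp12, the macrophage elastase, fell by 0.32 (0.0219). The call of Timp2 was lost without vehicle replicate 1 (adjusted p = 0.0568). That of Mmp9 was lost without any of 8 arrays (vehicle replicates 1 and 3, those at 1 µg/ml, 10 µg/ml replicate 1 and 50 µg/ml replicates 1 and 3) and that of Mmp12 without vehicle replicate 1 or 3 or 50 µg/ml replicate 2 or 3, with adjusted p up to 0.178 for Mmp9 and 0.102 for Mmp12. The calls of Mmp9 and Mmp12 were also lost when quantile normalization was applied again. Of the 7 rises in this list, only those of Mmp14 and Mmp2 kept their calls in all 21 alternative analyses. Of the 3 falls, those of Ctss and Lgals3 did.

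At 1 µg/ml the 4 partners that passed were all lower than vehicle. Vwa1 fell by 0.38 (adjusted p = 0.0444), Ltbp2 fell by 0.32 (0.0399), Mmp9 fell by 0.51 (0.0161) and Lgals3 fell by 0.29 (0.02). Mmp9 therefore had opposite signs at 1 and 50 µg/ml, as Fbln1 did. Each of these 4 calls was lost without any vehicle array, except that of Mmp9, which was kept without vehicle replicate 3, and each was also lost without 1 µg/ml replicate 3. Other arrays that ended a call were 1 µg/ml replicate 1 (Vwa1, Ltbp2 and Mmp9), 1 µg/ml replicate 2 (Vwa1), 10 µg/ml replicate 1 (Vwa1 and Ltbp2) and 50 µg/ml replicate 1 (Ltbp2). Their highest adjusted p over the 21 alternatives was 0.158 (Vwa1), 0.164 (Ltbp2), 0.0724 (Mmp9) and 0.0903 (Lgals3).

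**Figure D3:**
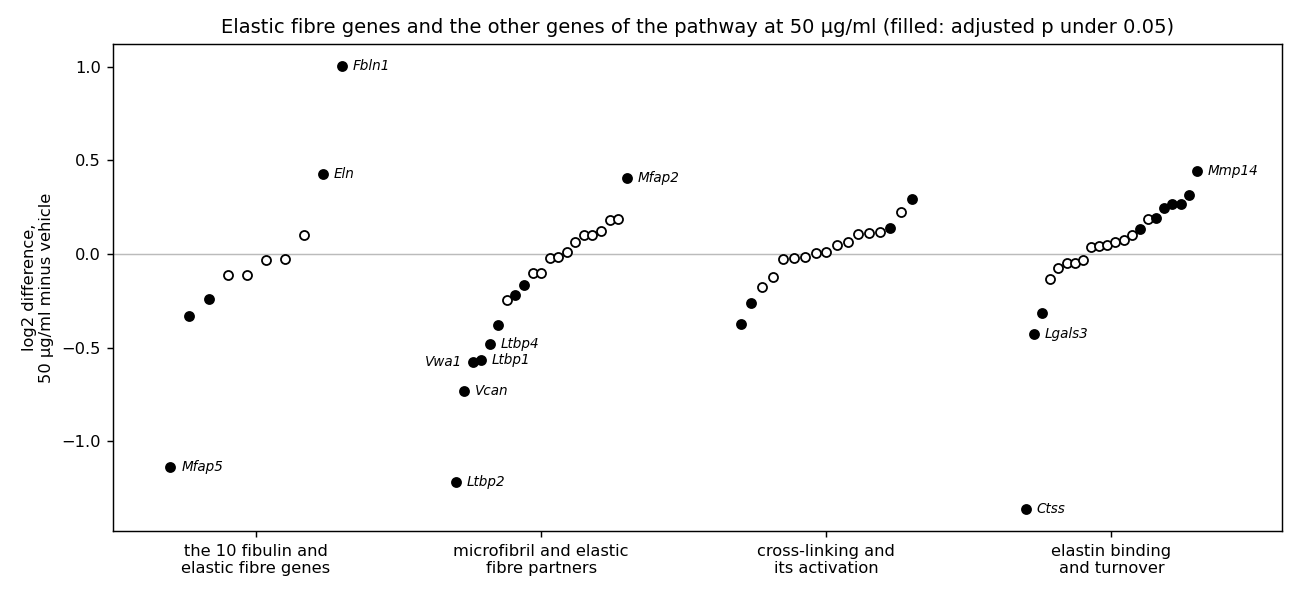
Log2 difference between 50 µg/ml and vehicle (vertical axis) for the 10 fibulin and elastic fibre genes and the 60 measured genes of the 3 pathway lists, in order of size within each list. Filled points have an adjusted p under 0.05, and genes past 0.4 in size are named: the values span -1.36 (Ctss) to 1.00 (Fbln1).

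Marker genes of other cell types changed in the same arrays, and in bulk RNA fewer cells of a type and less RNA per cell cannot be told apart. The marker lists were also chosen with earlier results of these data known. Over all genes, 8.75% were higher and 8.84% lower at 50 µg/ml, and 2.51% higher and 1.74% lower at 1 µg/ml. All 10 of 10 macrophage markers were lower at 50 µg/ml than in vehicle, with a median difference of -1.35. The median of these markers in each array was -1.04, -1.02 and -1.28 at 50 µg/ml, against 0.18, 0.31 and 0.19 in vehicle (Mfap5 had -0.98, -0.82 and -0.92 at 50 µg/ml). At 1 µg/ml, where Mfap5 was also lower, 2 of the 10 macrophage markers were lower and their array medians were 0.11, 0.03 and -0.25. Of 9 measured smooth muscle and pericyte markers, 3 were higher and 5 lower at 50 µg/ml (median -0.23), with array medians of -0.27, -0.13 and -0.19, against 0.00, 0.03 and 0.01 in vehicle. These medians hide a split. The largest rise of the list was 1.04 in Abcc9 (adjusted p = 7.33e-07) and the largest fall 0.78 in Rgs5 (1.9e-06). The part of these markers in the lower values of Mfap5, Lox and Fbln2 was not tested.

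Beside the higher values of Fbln1 and Eln at 50 µg/ml, 4 of 7 measured endothelial markers were higher and 1 lower (median 0.25), and of the 7 measured markers of epicardium and mesothelium 4 were higher and 0 lower (median 0.35). Over all genes 8.75% were higher and 8.84% lower at that dose. The smooth muscle and pericyte list went both ways at that dose, with 3 of 9 markers higher, 5 lower and a median of -0.23. The array medians of the endothelial markers were 0.22, 0.35 and 0.33 at 50 µg/ml, against 0.05, 0.05 and -0.03 in vehicle. At 1 µg/ml, where Fbln1 was lower, the endothelial medians were -0.20, -0.05 and -0.50 and 3 of the 7 markers were lower. The array medians of the epicardial and mesothelial markers were 0.31, 0.19 and 0.24 at 50 µg/ml, against 0.00, -0.06 and -0.07 in vehicle, and 0 of 7 passed at 1 µg/ml. Of 10 heart muscle markers 7 were higher and 0 lower at 50 µg/ml (median 0.22), 1 of 3 erythroid markers was higher (median 0.17), and of 10 fibroblast markers 0 were higher and 1 lower (median 0.02). The part of these shifts in the values of Fbln1 and Eln was not tested. Markers that had no probe set of their own symbol included Acta2, Pecam1, Kdr and Vwf.

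**Figure D4:**
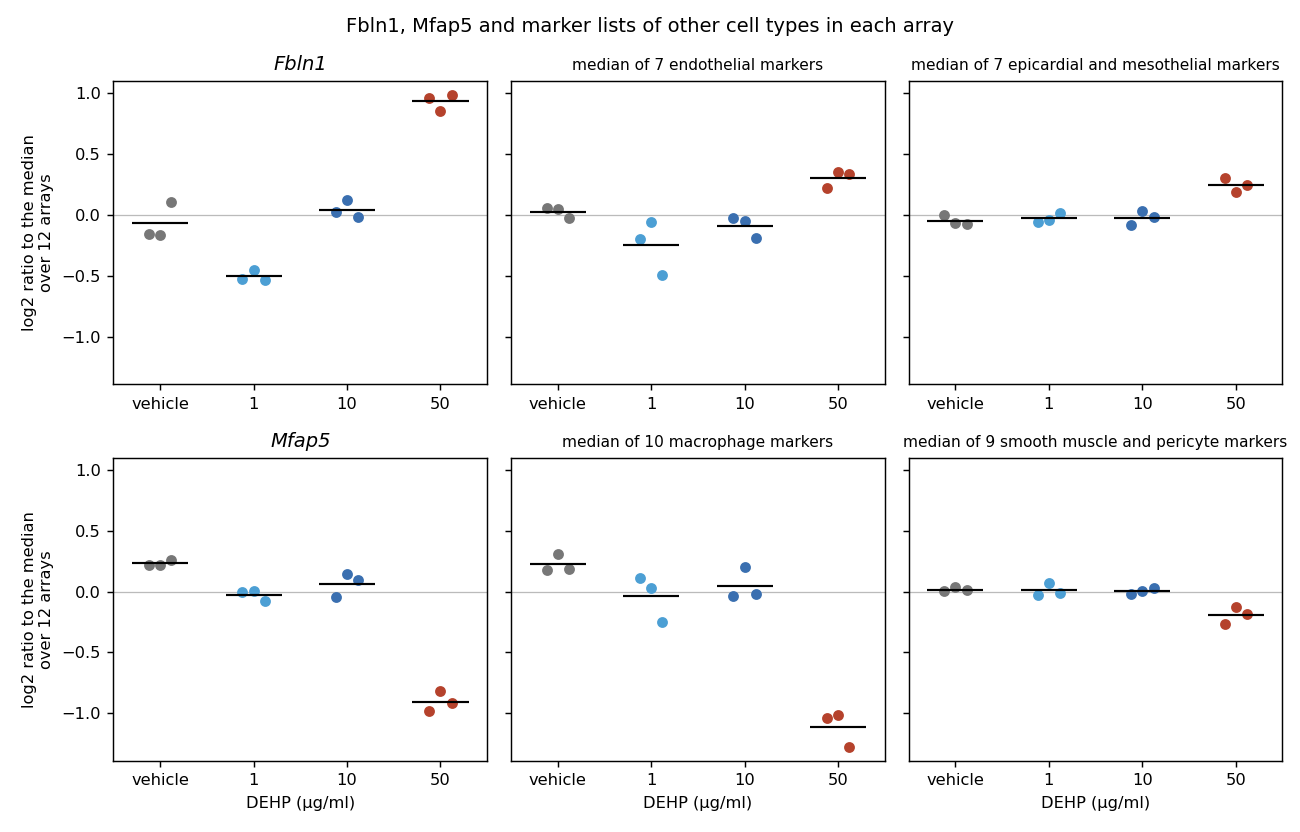
Log2 ratio to the median over 12 arrays (vertical axes) by DEHP dose in µg/ml, for Fbln1 beside the medians of the endothelial and the epicardial and mesothelial markers (top), and for Mfap5 beside those of the macrophage and the smooth muscle and pericyte markers (bottom). At 50 µg/ml the smooth muscle and pericyte median joins 3 markers called higher and 5 called lower. Not drawn are the heart muscle (7 higher, 0 lower of 10), fibroblast (0 higher, 1 lower of 10) and erythroid markers (1 higher, 0 lower of 3). Over all genes 8.75% were higher and 8.84% lower at that dose. Each point is 1 array and each bar the mean of 3: at 50 µg/ml the macrophage medians lie between -1.28 and -1.02 and Mfap5 between -0.98 and -0.82, while Fbln1, between 0.85 and 0.99, lies above both marker medians beside it.

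Fbln1 and Mfap5 had the largest SD over the 12 arrays of the 10 genes, 0.553 and 0.464, in the 99.5th and 99.2nd percentile of all genes. The genes most like each of them were found by the root mean square difference of log2 ratios over the 12 arrays, with each gene centred on its own mean. Nearest to Fbln1 were Chi3l1 (0.142), Cpz (0.166), Lbp (0.169), Smoc1 (0.174) and Cthrc1 (0.175), against a root mean square size of 0.529 for Fbln1 itself. Chi3l1, for example, had group means of -0.01 in vehicle, -0.57 at 1 µg/ml, 0.04 at 10 µg/ml and 0.95 at 50 µg/ml, close to those of Fbln1 at each dose. Nearest to Mfap5 were Fcgr1a (0.0709), Myo1f (0.0923), Laptm5 (0.0926), Megf10 (0.0955) and Txnip (0.105), against a size of 0.444 for Mfap5. Laptm5, one of the 10 macrophage markers, had group means of 0.28 in vehicle, -0.08 at 1 µg/ml, 0.13 at 10 µg/ml and -0.97 at 50 µg/ml. These genes were picked for likeness over the same arrays, which carry the same dose groups, and no test was made of them.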

How the data were processed

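RNA of 12 cultures was measured with Affymetrix arrays. RMA (robust multi-array average) was used, per the submitters' processing notes, with no version stated. The authors deposited linear ratios. Dividing by the median of the 12 arrays was found from the values: for every probe set the log2 midpoint of the 6th and 7th values was within 4.8e-07 of 0. The ratios ran from 0.165 to 12.2 and array medians from 0.994 to 1.01. The direction is stated in no source used here. Gene names came from the platform annotation (15097 of 27342 probe sets with 1 symbol, 323 with several, 11922 with none), and looking them up in the GRCr8 gene table, which held 15067, changed 0 symbols.

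The ratios were converted to log2, and probe sets of a gene were averaged (499 of 14324 genes had several). Because levels were lost, the planned filter on dim probe sets could not be run and the mean replaced the brightest probe set. Group means over all 12 arrays were fitted in R 4.3.3 using limma 3.58.1, with 8 residual degrees of freedom and empirical Bayes moderation with a constant prior. The 6 contrasts between groups and a moderated F were tested two-sided. All adjusted p-values come from limma, by the Benjamini-Hochberg method over 14324 genes, with a threshold of 0.05. The smallest exact permutation p for 3 arrays against 3 is 0.1, so no permutation test was used. The number of arrays limits the precision, and the median residual SD of a gene was 0.0822. Data were simulated for 50 µg/ml against vehicle over 14324 genes, with only 50 genes changed at each of 4 sizes. Of changes of 0.25 on the log2 scale 40% were recovered, of changes of 0.5 92%, and of changes of 1 and of 2 100%. In the measured arrays 17.6% of all genes were called, and the Benjamini-Hochberg cutoff depends on that share. The simulated recovery therefore does not give the power of the test on the measured arrays.

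The members, the 3 pathway lists, the 7 marker lists and the 6 promoter motifs were chosen with earlier results of these data known. All 10 members are named. For the pair with the largest SD over arrays the 5 genes of most similar pattern are named, and of each pathway list at most 4 rises and 4 falls at 50 µg/ml and 3 each way at 1 µg/ml, apart from Loxl1, Loxl2 and Loxl4, named after their values were seen. Dcn is on a pathway list and on the fibroblast list and was counted in both. No 2 arrays held identical values.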

Additional observations from a re-analysis of the deposited data

How the results depend on the processing

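Of 60 differences of single members (10 genes in 6 comparisons), each run under 21 alternatives, 1168 of 1260 values kept their side of the threshold, 77 lost the call, 15 gained one and 0 called differences changed sign. Not every alternative could move a difference. Taking the probe set with the largest variance leaves a member with 1 probe set as it was. Leaving out an array of a group not compared changes the estimate of spread, not the difference. Fbln1, Mfap5 and Eln at 50 µg/ml and Fbln1 at 1 µg/ml against vehicle kept their calls throughout, with Fbln1 between 0.74 and 1.09 at 50 µg/ml. The counts of members called were as follows when each array was left out in turn. They ran from 3 to 5 for 50 µg/ml against vehicle (5 with all arrays), 0 to 0 for 10 µg/ml (0) and 1 to 3 for 1 µg/ml (2). They ran from 3 to 4 for 50 against 10 µg/ml (5), 4 to 8 for 50 against 1 µg/ml (7), 1 to 4 for 10 against 1 µg/ml (3) and 3 to 7 for the F test (5). For the pathway lists they ran from 13 to 24 at 50 µg/ml (23) and 0 to 7 at 1 µg/ml (4). Other settings moved a few counts by more than 1.5 times. Quantile normalization applied again gave 3 members for 50 against 10 µg/ml and 15 pathway genes at 50 µg/ml. Fits of the compared groups alone gave 3 for 50 against 10 µg/ml, 1 for 10 against 1 µg/ml, and 4 members and 7 pathway genes at 1 µg/ml. Array weights gave 4 members and 7 pathway genes at 1 µg/ml and 1 member (Mfap5) at 10 µg/ml, and a prior variance following the mean gave 1 member at 1 µg/ml. The cause of these moves was not tested. The number of all genes called moved too. At 1 µg/ml it was 608 in the main fit and 1661 with the compared groups alone. Array weights gave 1772 there, and the prior following the mean 627. At 10 µg/ml it was 0 in the main fit and 90 with array weights. For 50 against 10 µg/ml it was 2091, with 1401 after the added quantile normalization and 1312 with the compared groups alone. For 10 against 1 µg/ml it was 2001, and 697 with the compared groups alone. Leaving out 10 µg/ml replicate 2 gave 1282 at 1 µg/ml.

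Replicate numbers do not pair the arrays: 6 of 18 same-numbered pairs had correlated deviations over 0.1 (range -0.233 to 0.431), and 5 of 12 arrays correlated best with their own number. With the replicate number as a block, the members called were 5, 0 and 2 at 50, 10 and 1 µg/ml against vehicle, 5 for 50 against 10 µg/ml, 7 for 50 against 1 µg/ml and 4 for 10 against 1 µg/ml, 5 for the F test, and 20 and 4 pathway genes at 50 and 1 µg/ml. Over all genes that fit called 2540, 0 and 742 at 50, 10 and 1 µg/ml against vehicle. A filter on dim probe sets, another background correction and a slide or scan block were not run, because the values hold no levels and no such files were used here. Signal over background is unknown.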
